A study of Mus musculus with 24 samples.

Results

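The comparison described here asks how whole-brain RNA differed when aSYN was added to brains that already carried Hsp70. It holds 12 of the 24 arrays of the series: the 6 whose titles name aSYN and Hsp70 together (aSYN/Hsp70) minus the 6 whose titles name Hsp70 alone. All mice were labelled as 4 months old, the RNA was total RNA of whole brain, and each sample was hybridised to 1 Affymetrix mouse genome array. The other 12 arrays, 6 wild type (wt) and 6 aSYN, entered the same fit and serve as the reference for aSYN without Hsp70. Hsp70 is thus shared by both groups of the comparison. In the labels aSYN stays an abbreviation, taken here to stand for alpha-synuclein, and they give neither the promoter of any transgene, nor the strain, nor the way Hsp70 was raised. Nothing in the labels says that samples came from separate animals, so every p-value measures the spread between samples.

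Alpha-synuclein is a small presynaptic protein that binds synaptic vesicles and forms the aggregates of Lewy bodies, and extra copies or point mutations of its gene cause inherited Parkinson disease. HSP70 proteins are ATP-driven chaperones that, with J-domain co-chaperones and exchange factors, hold, refold or hand over misfolded proteins. HSP70 is known to bind alpha-synuclein and to slow its aggregation, and mice carrying both have been used to study that relation.

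Levels are given as log2(intensity + 16) after quantile normalisation, and a difference is aSYN/Hsp70 minus Hsp70 on that scale, where 1 is a 2-fold difference. Levels of different probe sets cannot be set against each other. The brains held the markers of neurons, glia and vessels: Snap25, a synaptic fusion protein, had a mean level of 16.68 in Hsp70 and 16.66 in aSYN/Hsp70, Mbp, a myelin protein, 17.10 and 17.00, Gfap, an astrocyte filament, 13.41 and 13.72, and Cldn5, an endothelial junction protein, 13.19 and 13.17. A set of 4 arrays stood apart from the others by their limma array weight, all of them in these groups: Hsp70 replicates 3 and 6 at 0.251 and 0.332, and aSYN/Hsp70 replicates 3 and 4 at 0.394 and 0.124. The median probe set had an SD of 0.31 in Hsp70 and 0.36 in aSYN/Hsp70, against 0.22 in wt and 0.22 in aSYN. Without the 4 arrays it was 0.20 in Hsp70 and 0.22 in aSYN/Hsp70. By Xist and Y-linked probe sets, 3 of 6 Hsp70 and 2 of 6 aSYN/Hsp70 samples were female. Exact two-sided permutation tests of 7 array values (median intensity, sex score and 3' to 5' ratios) between the groups gave a smallest p of 0.0736, with an adjusted value of 0.515. Genes and lists with larger differences are also given without these 4 arrays.

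No gene passed the test. Of 27022 probe sets, 0 were called at an adjusted p of 0.05 (0%, limma with Benjamini-Hochberg adjustment), and the smallest adjusted p was 0.122, shared by 21 probe sets. At an unadjusted p under 0.05, 2599 probe sets passed (9.62%), of which 1093 were higher in aSYN/Hsp70 (4.04%) and 1506 were lower (5.57%). With median centring in place of quantile normalisation the split was 453 higher and 1327 lower. In 84 probe sets (0.311%) the 6 and 6 arrays did not overlap: 37 were higher (0.137%) and 47 lower (0.174%). The median probe set differed by -0.01 with a median standard error of 0.18. Without the 4 arrays of low weight, the calls numbered 4 (0.0148%), and 2229 probe sets reached an unadjusted p under 0.05 (8.25%).

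The genes with the smallest p in the higher direction had varied roles. Gpr1, a receptor for the adipokine chemerin, ranged from 8.36 to 9.04 in Hsp70 (median 8.55) and from 8.80 to 9.94 in aSYN/Hsp70 (median 9.46). All 6 aSYN/Hsp70 arrays lay above the Hsp70 mean, but 1 of them, replicate 3, lay inside the Hsp70 range. The difference was 0.79 (SE 0.15, limma adjusted p = 0.122). Without the 4 arrays of low weight it was 0.85 and was called (adjusted p = 0.0223). Array weights gave 0.78 (adjusted p = 0.0373), and leaving out aSYN/Hsp70 replicate 3 alone gave 0.92 (adjusted p = 0.0207). Removing the array nearest to the Hsp70 group enlarges the difference by construction, so that call is no further support. No other fit with 1 array left out called Gpr1, and those fits ran from 0.69 to 0.92.

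Ceacam1, an adhesion molecule of the carcinoembryonic antigen family, ranged from 9.02 to 9.84 in Hsp70 (median 9.61) and from 10.18 to 10.99 in aSYN/Hsp70 (median 10.41). The groups did not overlap, and the difference was 0.98 (SE 0.19, adjusted p = 0.122). The other 4 tested probe sets of Ceacam1 did not share it: 2 were higher and 2 lower, from -0.45 to 0.32.

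Trip4, a subunit of a transcription coactivator complex, ranged from 9.78 to 10.80 in Hsp70 (median 10.12) and from 10.42 to 11.02 in aSYN/Hsp70 (median 10.97). In all, 5 of the aSYN/Hsp70 arrays lay above all Hsp70 arrays, and replicate 6, at 10.42, lay below the highest Hsp70 array. The difference was 0.69 (SE 0.15, adjusted p = 0.122), and it was 0.39 (unadjusted p = 0.0025) in the brighter of its other tested probe sets and -0.13 in the third.

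Pafah1b2, a catalytic subunit of the platelet-activating factor acetylhydrolase that partners the lissencephaly protein LIS1, ranged from 12.69 to 13.16 in Hsp70 (median 12.92) and from 13.06 to 13.60 in aSYN/Hsp70 (median 13.35). The groups overlapped in a narrow band, and the difference was 0.43 (SE 0.09, adjusted p = 0.122). All 4 of its tested probe sets were higher, by 0.09, 0.13, 0.25 and 0.43, and 3 of them had an unadjusted p under 0.05.

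The other genes in this direction were Rnf157, a brain ubiquitin ligase (1.38 higher), Bend4, a BEN domain protein (1.61), Lacc1, a laccase domain enzyme of immune cells (1.18), Spsb4, a substrate adaptor of a ubiquitin ligase (0.85), Alox5ap, needed for leukotriene synthesis (0.50), Mios, a part of the GATOR2 complex of nutrient sensing (0.49), Kif2a, a microtubule-depolymerising kinesin (0.45), and Morf4l2, a chromatin protein (0.41). Their adjusted p-values ran from 0.122 to 0.147. The brightest probe set of several did not show the difference: it was 0.08 for Rnf157, -0.07 for Kif2a and 0.01 for Morf4l2. For Bend4 it was 0.44 (SE 0.38), and -0.08 without the 4 arrays, and for Mios it was 0.15 (SE 0.16).

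**Figure D1:**
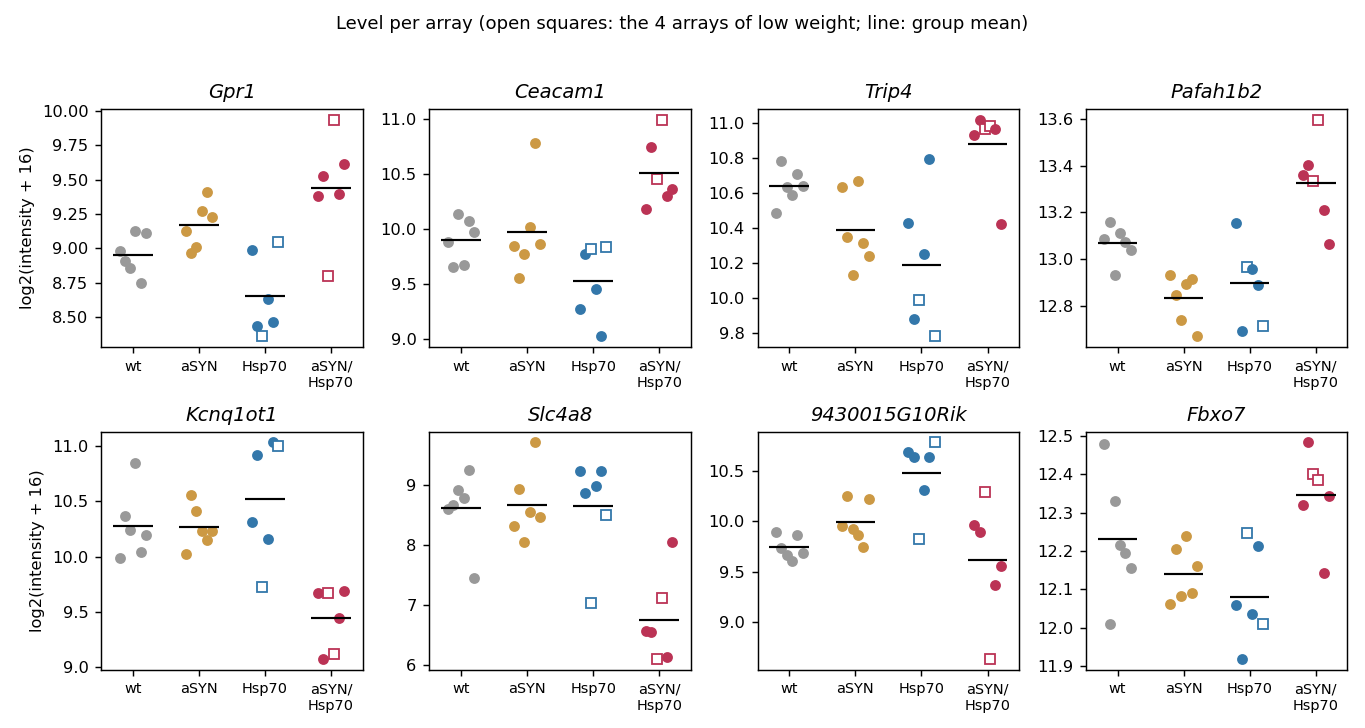
Level per array, as log2(intensity + 16), of 8 genes in the 4 groups. Each point is 1 array, the line is the group mean and open squares are the 4 arrays of low weight. The Hsp70 and aSYN/Hsp70 arrays were apart in Ceacam1 and, by the narrow gap between 9.69 and 9.73, in Kcnq1ot1, while in Gpr1, Trip4, Pafah1b2, Slc4a8, 9430015G10Rik and Fbxo7 at least 1 array crossed over.

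In the lower direction the first gene was Kcnq1ot1, an imprinted long noncoding RNA that silences its neighbours on the paternal chromosome. It ranged from 9.73 to 11.03 in Hsp70 (median 10.62) and from 9.07 to 9.69 in aSYN/Hsp70 (median 9.56). The groups did not overlap, and the wt and aSYN means, 10.28 and 10.27, lay between them. The difference was -1.08 (SE 0.20, adjusted p = 0.122), and its other tested probe set gave -0.80 (unadjusted p = 0.0062). Leaving out Hsp70 replicate 3, the lowest array of that group, gave -1.24 and a call (adjusted p = 0.0237). Removing that array enlarges the difference by construction, so the call is no further support. No other fit with 1 array left out called Kcnq1ot1, and those fits ran from -1.24 to -0.98.

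Slc4a8, a sodium-driven chloride bicarbonate exchanger of neurons, ranged from 7.03 to 9.23 in Hsp70 (median 8.92) and from 6.10 to 8.05 in aSYN/Hsp70 (median 6.56). The overlap came from Hsp70 replicate 3, at 7.03. The difference was -1.88 (SE 0.39, adjusted p = 0.122). It was -2.21 with array weights (adjusted p = 0.0373) and -2.20 without Hsp70 replicate 3 (adjusted p = 0.0317). Removing that overlapping array enlarges the difference by construction, so the second call is no further support. No other fit with 1 array left out called Slc4a8, and those fits ran from -2.20 to -1.75. The named probe set is the dimmest of 4 tested probe sets of the gene. The others gave -0.42 in the brightest (unadjusted p = 0.0053), -0.03 and -0.63.

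9430015G10Rik, a gene of unstated function, ranged from 9.82 to 10.79 in Hsp70 (median 10.64) and from 8.63 to 10.30 in aSYN/Hsp70 (median 9.72). The lowest Hsp70 array was replicate 3, one of the 4 of low weight. The difference was -0.87 (SE 0.20, adjusted p = 0.176), and -0.88 without the 4 arrays, where it was called (adjusted p = 0.0355). This gene is not among the 12 lower genes of smallest p. It was named because of that call, so the call is no further support.

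Among the 12 lower genes of smallest p, 4 act in ribosome or RNA processing. That grouping was noticed after their values were seen and was given no test. They were Bop1 (-1.85) and Riok1 (-1.62) in ribosome assembly, Taf1d (-0.67) in RNA polymerase I transcription and Exosc10 (-1.15) in the RNA exosome. Each of these values came from a dim probe set. The brightest tested probe set of each gene gave 0.22 for Bop1, 0.05 for Riok1, -0.17 for Taf1d and -0.04 for Exosc10. Of the remaining genes, Chd4, the motor of the NuRD chromatin complex, gave -1.63, and 0.00 in its brightest probe set. Gm26588 gave -1.45 and Adamts20, a secreted protease, -0.77. Fgf14, which binds sodium channels, gave -1.12, but -0.23 and 0.34 in its 2 brighter probe sets. Crlf3 gave -0.70, but -0.16 in its brighter probe set, or 0.06 there without the 4 arrays. Mbtd1, a chromatin protein, gave -0.56, and -0.22 in its brightest probe set.

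Among the 24 genes of smallest p, 12 in each direction, 13 had groups that did not overlap, against 84 of all 27022 probe sets (0.311%). These genes were chosen for their small p in this contrast, which favours groups without overlap. Neither that count nor their values without the 4 arrays are further support. Without the 4 arrays Exosc10 differed by -0.67. Of the 24 genes, 19 had other tested probe sets, 45 in all. Of those, 29 had the same sign and 7 also had an unadjusted p under 0.05, and 16 of the 24 genes had a brighter probe set than the one that named them. Of the 1506 lower probe sets at an unadjusted p under 0.05, 23.6% had no gene name here, against 10.2% of the 1093 higher ones and 12.7% of all tested. Their median level was 10.12, against 10.64 and 10.85, and the share was not tested. In the 47 lower probe sets without overlap 18 had no name, against 4 of the 37 higher ones.

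**Figure D2:**
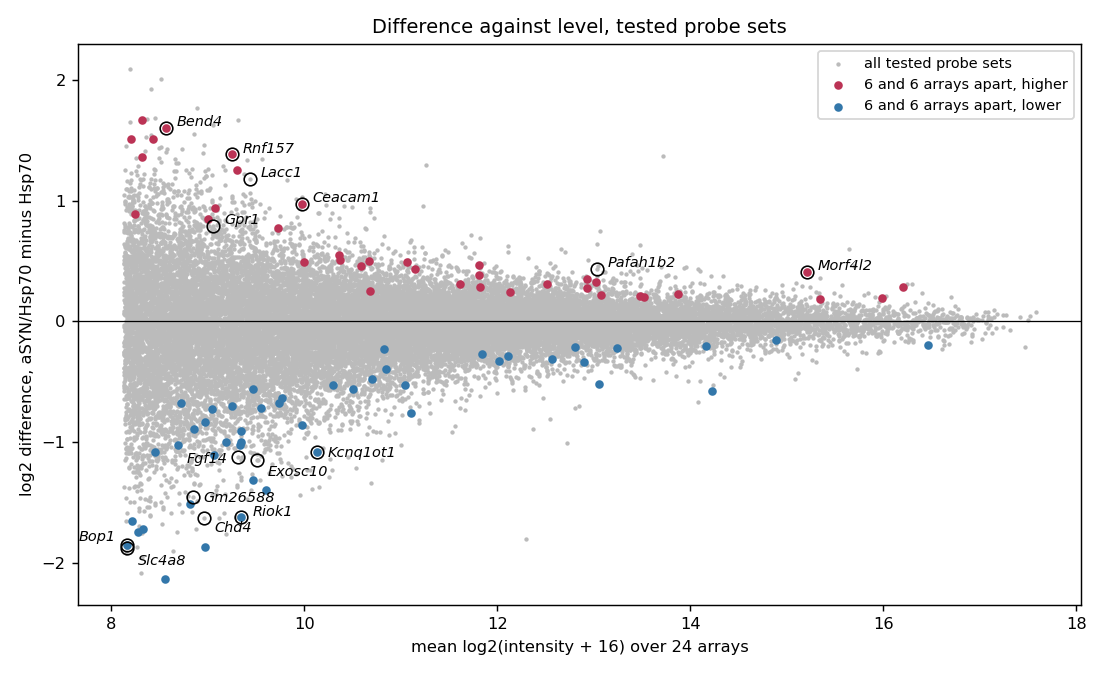
Log2 difference, aSYN/Hsp70 minus Hsp70, against the mean level over all 24 arrays for the 27022 tested probe sets. Circled points are named genes, coloured points are the 37 higher and 47 lower probe sets whose 6 and 6 arrays did not overlap, and sizes widen at low levels, where the median standard error was 0.42 over the dimmest 5405 probe sets and 0.10 over the brightest 5405.

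The aSYN difference without Hsp70 (aSYN minus wt) was measured on the other 12 arrays. It called 1 probe set (0.0037%), and 1398 had an unadjusted p under 0.05 (5.17%). Of the 24 genes named above for the smallest p with Hsp70, 10 had the same sign without it and 14 the opposite. All 24 differed by less without Hsp70 than with it, as the choice of genes favours. Of the 24, 3 had an unadjusted p under 0.05 without Hsp70, and 0 of these 3 had the same sign: Bend4 (-0.77), Pafah1b2 (-0.23) and Adamts20 (0.41). The interaction, the aSYN difference with Hsp70 minus that without, called 0 of 27022 probe sets (0%, limma), and 2198 had an unadjusted p under 0.05 (8.13%). For Bend4 the interaction was 2.38 (SE 0.46, adjusted p = 0.0662), for Pafah1b2 0.67 (SE 0.13, adjusted p = 0.0662) and for Kcnq1ot1 -1.07 (SE 0.28, adjusted p = 0.244). The interaction contains the contrast that chose these genes, so that choice favours large values and they are no separate support.

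**Figure D3:**
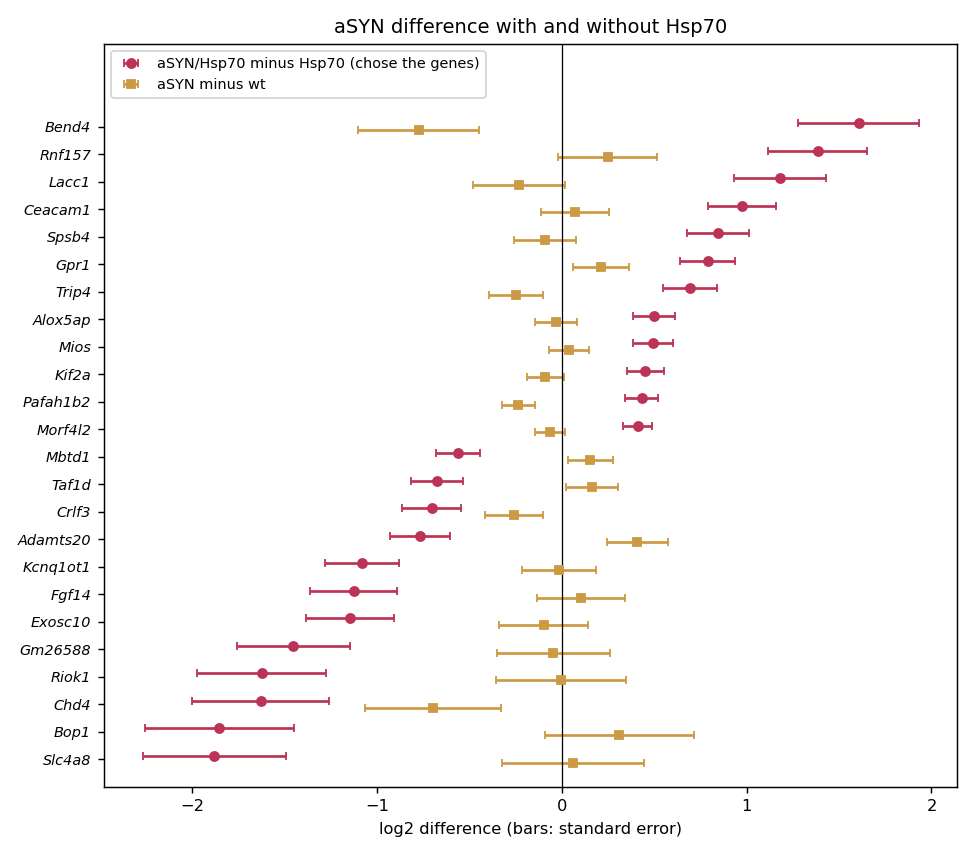
Log2 difference of the 24 genes with the smallest p, 12 in each direction, for aSYN/Hsp70 minus Hsp70 (circles, the contrast that chose the genes) and aSYN minus wt (squares). Bars are standard errors. The squares lie nearer to 0 in all 24 genes, and 14 of them lie on the other side of 0.

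The chaperones came first among the gene lists. For Hspa1a and Hspa1b, the stress-inducible HSP70 genes, no difference was resolved between groups that both carry Hsp70. Standard errors ran from 0.33 to 0.42, so sizeable differences in either direction remain possible. Whether a probe set reads a transgene is not stated in the labels. Hspa1a ranged from 10.15 to 11.45 in Hsp70 (median 10.97) and from 7.86 to 11.53 in aSYN/Hsp70 (median 11.09). The groups overlapped, with aSYN/Hsp70 replicate 4 far below the rest at 7.86. The difference was -0.25, and 0.35 without the 4 arrays of low weight. The 3 probe sets of Hspa1b gave -0.09, 0.09 and 0.03. Exact two-sided permutation tests of these 4 probe sets gave p from 0.803 to 0.911, adjusted p 0.911. Hspa1a and Hspa1b are nearly identical, so their probe sets may read both.

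Of 13 tested HSP70 and HSP110 genes, 7 were higher and 6 lower, with a median of 0.00 against -0.01 over all 12929 genes tested. The sign of that median turned under median centring and without quantile normalisation. Hspa13, a microsomal member, had the largest difference, 0.38 (SE 0.15, unadjusted p = 0.0195), and 0.18 without the 4 arrays. Its other 3 probe sets gave -0.08, 0.14 and -0.06. Hspa8, the constitutive cytosolic HSP70, differed by 0.04, Hspa5, the chaperone of the endoplasmic reticulum, by -0.08 (0.62 in its dimmest probe set, unadjusted p = 0.00843), Hspa9, that of mitochondria, by -0.03, and the HSP110 exchange factors Hsph1 by 0.00 and Hspa4 by -0.07. Hspa2 (0.05), Hspa4l (-0.07), Hspa12a (0.00), Hspa14 (-0.07) and Hyou1 (0.26) complete the family. Among 25 co-chaperones, HSP90 and small heat shock genes, 8 were higher and 17 lower (median -0.05, and 0.01 without the 4 arrays). St13, a co-chaperone that binds HSP70, was 0.22 higher (SE 0.09, unadjusted p = 0.0183). The list's other genes each had a p over 0.05. The 18 genes of the unfolded protein response had a median of -0.02, and 0 had an unadjusted p under 0.05.

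Genes of familial parkinsonism and the synuclein family were 8 higher and 10 lower of 18 tested, with a median of -0.01, and 0.03 without the 4 arrays. Fbxo7, an adaptor of a ubiquitin ligase that is mutated in a recessive parkinsonism, ranged from 11.92 to 12.25 in Hsp70 (median 12.05) and from 12.14 to 12.48 in aSYN/Hsp70 (median 12.36). The groups overlapped in 1 aSYN/Hsp70 array. The difference was 0.27 (SE 0.08, unadjusted p = 0.00308, adjusted p = 0.312), and 0.27 without the 4 arrays. Vps13c, a lipid transfer protein, differed by -0.22 (unadjusted p = 0.0444), and by -0.11 without them.

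Sncg, gamma-synuclein, ranged from 10.13 to 11.08 in Hsp70 (median 10.55) and from 7.64 to 10.72 in aSYN/Hsp70 (median 10.15), with aSYN/Hsp70 replicate 4 far below the others. The difference was -0.71 (SE 0.35, unadjusted p = 0.0522), and -0.48 without the 4 arrays. Sncb, beta-synuclein, differed by 0.07, and Sncaip, synphilin-1, by -0.11, or 0.34 without the 4 arrays. A dimmer probe set of Sncaip gave -0.88 (unadjusted p = 0.0258), and -0.38 without the 4 arrays. The mitochondrial quality control gene Pink1 differed by -0.05, Park7 by 0.08 and Htra2 by -0.14. The signs of Pink1 and Htra2 turned without the 4 arrays, to 0.12 and 0.09. The endosomal and vesicle genes Vps35 (0.01), Lrrk2 (-0.01), Synj1 (0.03), Dnajc6 (0.12), Dnajc13 (-0.15), Rab39b (0.08) and Atp13a2 (-0.02) lay between -0.15 and 0.12 in their brightest probe sets. Dimmer ones gave 0.33 for Vps35 (unadjusted p = 0.0143) and 0.28 for Atp13a2. Uchl1 (0.11), Pla2g6 (-0.17) and Gigyf2 (-0.15) complete the list, and another probe set of Pla2g6 gave 0.77 (unadjusted p = 0.00812). The mouse gene for alpha-synuclein was not analysed here.

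The dopamine neuron list, which holds the cells that degenerate in Parkinson disease, was 5 higher and 6 lower of 11 tested, with a median of -0.08, and -0.22 without the 4 arrays. Ret, the receptor of glial cell line-derived factors, ranged from 9.92 to 10.30 in Hsp70 (median 10.14) and from 8.13 to 10.35 in aSYN/Hsp70 (median 9.59). The aSYN/Hsp70 arrays spread over the whole Hsp70 range and below it. The difference was -0.73 (SE 0.27, unadjusted p = 0.0123), and -0.50 without the 4 arrays, while its other probe set gave -0.01. Slc18a2, the vesicular monoamine transporter, differed by -0.42 (unadjusted p = 0.0283), and by -0.23 without them. Th, the rate-limiting enzyme of dopamine synthesis, differed by 0.12, Slc6a3, the dopamine transporter, by 0.02, Ddc by -0.08, Nr4a2 by 0.03, Aldh1a1 by -0.14 and Drd2 by -0.19. Without the 4 arrays these were 0.18, -0.25, 0.09, -0.22, 0.01 and -0.29 in the same order, so the signs of Slc6a3, Ddc, Nr4a2 and Aldh1a1 turned. Gch1 (0.36), Chrna6 (0.23) and Lmx1b (-0.35) had standard errors of 0.28 to 0.41. In whole brain, fewer cells of a type and less RNA per cell cannot be told apart.

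Protein clearance and energy genes lay near 0. The proteasome list had 20 of 31 genes higher (median 0.02) and the autophagy and lysosome list 20 of 32 (median 0.02), each with 0 members at an unadjusted p under 0.05. Both medians were below 0 under median centring. Respiratory complex I had 13 higher and 20 lower of 33 (median -0.02, and 0.02 without the 4 arrays, a sign that also turned without quantile normalisation), with Ndufb8 0.21 higher (unadjusted p = 0.0101) and Ndufs5 -0.18 (unadjusted p = 0.0376). Complexes II to V had 22 of 34 higher (median 0.02), a sign that turned under median centring. Of 26 antioxidant genes, Nqo1, a quinone reductase, was 0.47 higher (unadjusted p = 0.0142, and 0.23 without the 4 arrays), while Nfe2l2, the factor known to drive it, differed by -0.45 (unadjusted p = 0.0453) and by -0.03 without the 4 arrays.

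Synaptic lists were mixed. Of 32 synaptic vesicle and release genes, 13 were higher and 19 lower (median -0.01, a sign that turned without quantile normalisation). Syn2, which tethers vesicles, was 0.26 higher, but 0.06 higher without the 4 arrays. The release-site scaffolds Rims1 (-0.20) and Unc13a (-0.23) had unadjusted p of 0.046 and 0.0478, and were -0.23 and -0.12 without the 4 arrays. Of 31 glutamate receptor and postsynaptic genes, 21 were lower (median -0.08, and -0.09 without the 4 arrays), with 0 at an unadjusted p under 0.05. In the GABA list Gad2, a GABA-synthesising enzyme, was 0.38 higher (unadjusted p = 0.0477). The receptor subunit Gabrd was -0.27 (unadjusted p = 0.0412), and -0.12 without the 4 arrays. The probe sets of the subunit Gabrb2 disagreed: the brightest gave -0.38 (unadjusted p = 0.0151), another 0.32 (unadjusted p = 0.0174) and the other 3 from -0.26 to 0.14. Of 18 immediate early genes, which neurons switch on with activity, 14 were lower (median -0.22, and -0.12 without the 4 arrays). Their list level, the mean over its genes relative to the wt mean, ran from -0.56 to 0.58 in Hsp70 and from -0.63 to 0.48 in aSYN/Hsp70, so the groups overlapped almost wholly.

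**Figure D4:**
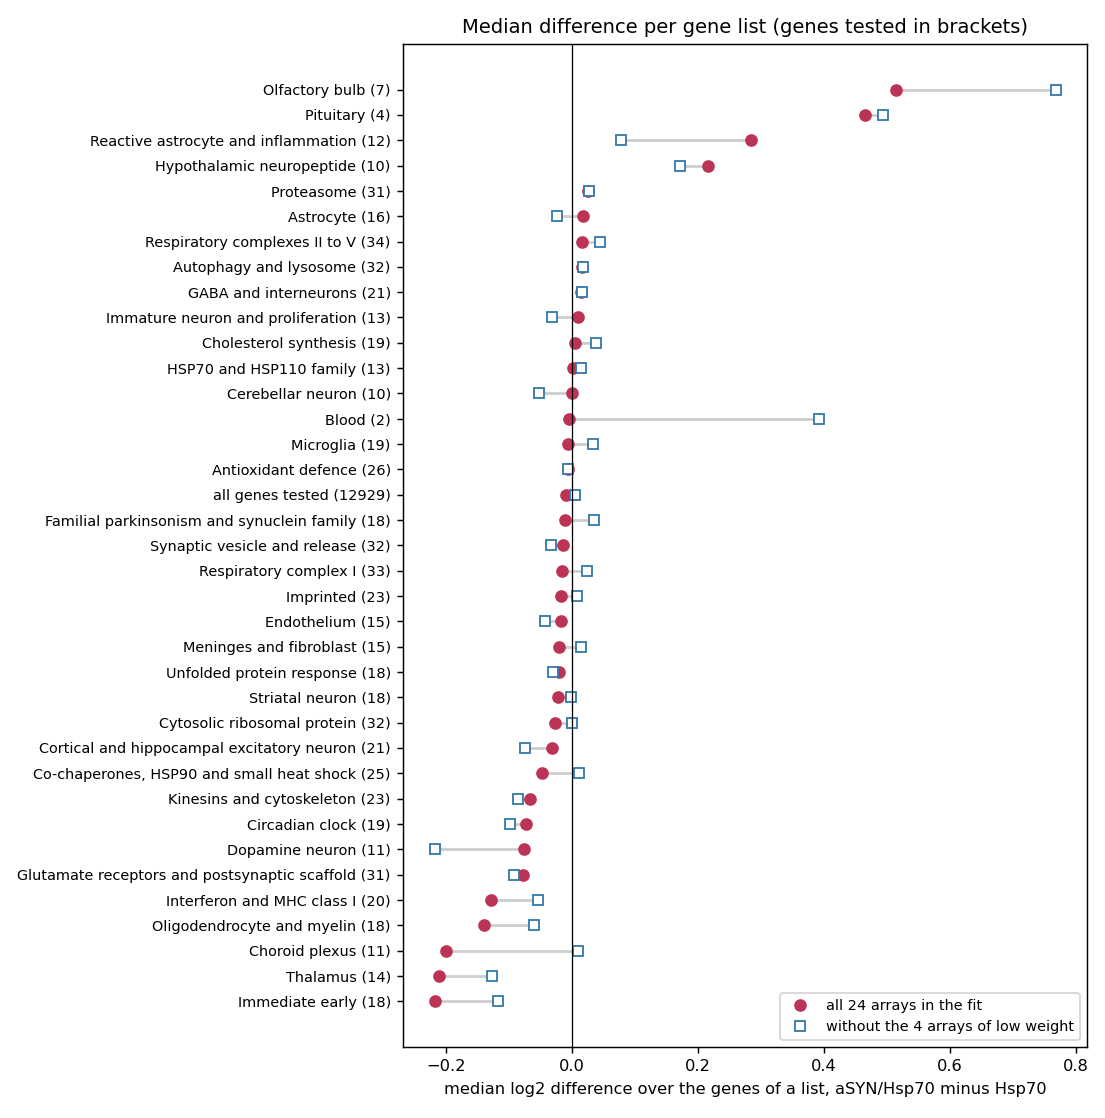
Median log2 difference, aSYN/Hsp70 minus Hsp70, over the tested genes of each list, with the number of genes in brackets. Filled circles use all 24 arrays in the fit and open squares leave out the 4 arrays of low weight. Most medians lie within 0.1 of 0, and those of the reactive astrocyte list and the choroid plexus list moved from 0.28 to 0.08 and from -0.20 to 0.01.

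The myelin and thalamus lists leaned one way in nearly all of their genes. Of 18 oligodendrocyte and myelin genes, 17 were lower (median -0.14), against 6744 of 12929 over all genes. The 1 higher gene was Cspg4, a marker of oligodendrocyte precursors (0.48, unadjusted p = 0.019, and 0.13 without the 4 arrays). A dimmer probe set of Cspg4 did not share it, at -0.09, and -0.42 without the 4 arrays. The other 17 genes of the list each had an unadjusted p over 0.05, among them Mbp (-0.10) and Mog (-0.60, and -0.05 without the 4 arrays). The list level ran from -0.15 to 0.05 in Hsp70 (median -0.05) and from -0.68 to 0.09 in aSYN/Hsp70 (median -0.17). The groups overlapped, and the value of -0.68 was aSYN/Hsp70 replicate 4. Without the 4 arrays the median difference was -0.06, and over the alternatives between 13 and 17 of the genes were lower.

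Of 14 thalamus genes, 12 were lower (median -0.21). Of these, 4 had an unadjusted p under 0.05, against 606 lower genes of 12929 over all genes. Rgs16, a regulator of G protein signalling, ranged from 10.17 to 11.38 in Hsp70 (median 10.94) and from 8.62 to 10.67 in aSYN/Hsp70 (median 10.16), a difference of -0.85 (SE 0.29, unadjusted p = 0.00699, adjusted p = 0.371). Its other probe sets gave 0.12 and -0.62. Ntng1, netrin-G1 of thalamic axons, differed by -0.38, the homeobox gene Shox2 by -0.33 and the nuclear receptor Rora by -0.20. Without the 4 arrays these were -0.36, -0.18, -0.11 and -0.14 in the same order, and the list median was -0.13. Of the other probe sets of Rora, 2 dimmer ones were higher, by 0.50 (unadjusted p = 0.0299) and 1.19 (unadjusted p = 0.0218). The list level ran from -0.48 to -0.03 in Hsp70 and from -1.0 to -0.06 in aSYN/Hsp70, and the groups overlapped. Over the alternatives between 9 and 13 of the thalamus genes were lower. In every alternative the medians of both the thalamus and the myelin list stayed below 0. The same held for the dopamine, glutamate receptor, striatal, kinesin and cytoskeleton, immediate early and clock lists.

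**Figure D5:**
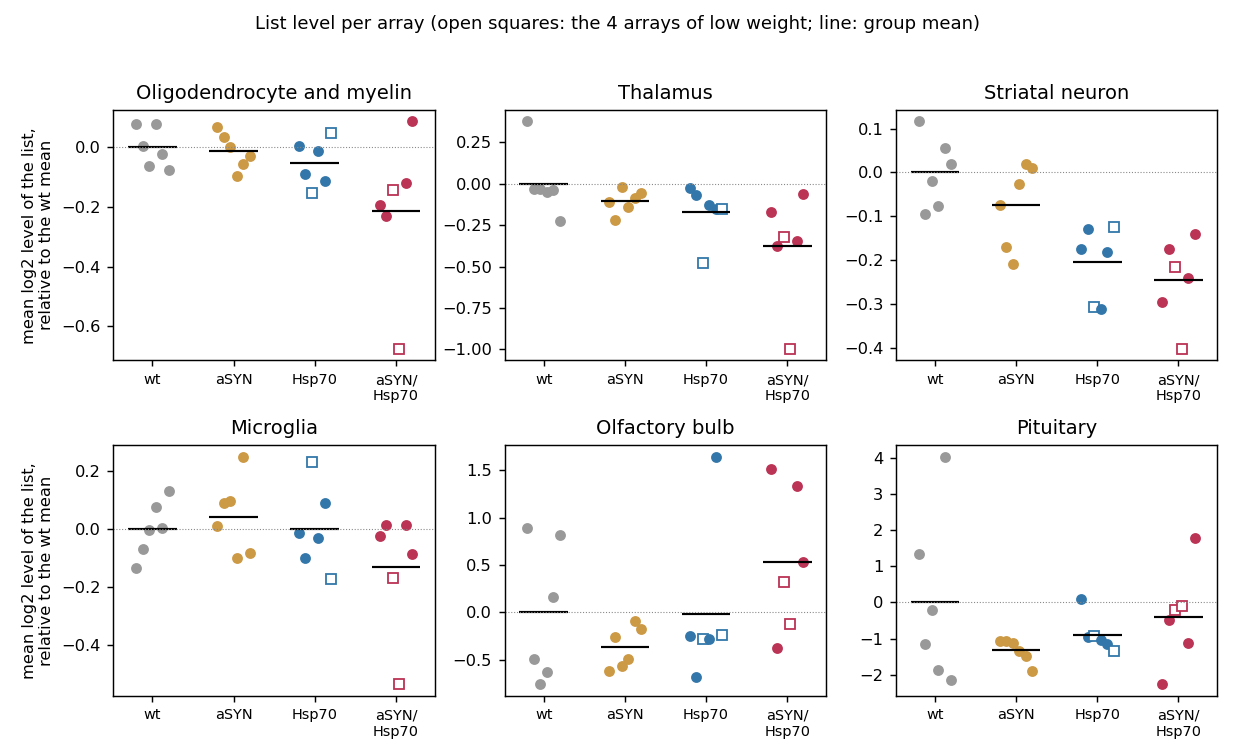
List level per array, the mean log2 level of the list's tested genes relative to the wt mean, for 6 marker lists in the 4 groups. Each point is 1 array, lines are group means and open squares are the 4 arrays of low weight. The lowest myelin, thalamus and microglia points, at -0.68, -1.0 and -0.53, are all aSYN/Hsp70 replicate 4, and the Hsp70 and aSYN/Hsp70 arrays overlap in each list.

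Other regional lists spread widely between arrays. Of 7 olfactory bulb genes, 6 were higher (median 0.51, and 0.77 without the 4 arrays), but the list level ran from -0.68 to 1.65 in Hsp70 and from -0.37 to 1.51 in aSYN/Hsp70, and the 1 gene at an unadjusted p under 0.05, Gm266, was lower (-0.56, unadjusted p = 0.00426). All 4 pituitary genes were higher (median 0.47), with list levels from -1.35 to 0.09 in Hsp70 and from -2.26 to 1.79 in aSYN/Hsp70. How much pituitary or olfactory bulb each dissection held was not tested. Of 11 choroid plexus genes, 8 were lower (median -0.20), and the median was 0.01 without the 4 arrays. Striatal genes had a median of -0.02, cortical and hippocampal ones -0.03 and cerebellar ones 0.00.

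Astrocyte, microglia and immune lists follow. Of 16 astrocyte genes, 9 were higher (median 0.02, below 0 under median centring and without the 4 arrays), and Slco1c1, a thyroid hormone transporter, differed by -0.25 (unadjusted p = 0.0168, and -0.16 without the 4 arrays). Of 12 reactive astrocyte and inflammation genes, 9 were higher (median 0.28, and 0.08 without the 4 arrays, above 0 in all 25 settings), yet S100a10, the 1 member at an unadjusted p under 0.05, was lower (-0.50, unadjusted p = 0.00456). Microglia genes were 9 higher and 10 lower (median -0.01, and 0.03 without the 4 arrays). Fcrls, a microglial Fc receptor-like gene, ranged from 10.88 to 11.60 in Hsp70 (median 11.27) and from 9.80 to 10.92 in aSYN/Hsp70 (median 10.37), and the ranges met only at their ends. The difference was -0.82 (SE 0.23, unadjusted p = 0.00178, adjusted p = 0.29), and -0.61 without the 4 arrays. On the separate wt and aSYN arrays Fcrls differed by -0.92 (aSYN minus wt), while the median over the microglia list was 0.13 there.

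In the interferon list Usp18 was 0.95 higher (unadjusted p = 0.0159, and 0.74 without the 4 arrays). Its mean level, 8.18, was close to that of the dimmest tested probe set, 8.13. B2m, the light chain of MHC class I, was lower (-0.53, unadjusted p = 0.018, and -0.32 without the 4 arrays). The endothelial co-receptor Eng differed by -0.31 (unadjusted p = 0.0127, and -0.41 without the 4 arrays). Among 23 imprinted genes, 9 were higher and 14 lower. Beside Kcnq1ot1, Nnat, neuronatin, was 0.30 higher (unadjusted p = 0.0105). Of 32 ribosomal protein genes, 22 were lower (median -0.03, a sign that turned without quantile normalisation), with Rpl14 at -0.55 and at -0.07 without the 4 arrays. In the clock list Npas2 differed by -0.31 (0.03 in its other probe set) and Bhlhe40 by -0.37 (-0.16 without the 4 arrays), and Bhlhe41 by 0.98, or 0.14 without them. Sort1, a neuronal sorting receptor, gave -0.05, 0.19 and -0.05 in its 3 probe sets.

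Over the 36 lists, 666 different genes were tested, 43 had an unadjusted p under 0.05 (6.46%, against 8.33% of all 12929 genes) and 0 were called. Of the 105 genes named by rule, 64 had other tested probe sets, and in 39 of these at least 1 had the opposite sign. In 0 of the 36 lists did the list levels of the 6 and 6 arrays separate.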

How the data were processed

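The table deposited by the authors gives a linear intensity for every probe set on each array. How probes were summarised into probe sets is not stated in the labels. Intensities were transformed as log2(intensity + 16), which understates differences of dim probe sets, and quantile normalised over 24 arrays. The 64 control probe sets and the dimmest 40% were left out, leaving 27022. Of 45101 probe sets 34958 carried 1 symbol, and only those were named (symbols checked against GRCm38.p6 by gene ID). limma 3.58.1 in R 4.3.3 (lmFit, eBayes) fitted a mean per group on all 24 arrays, with Benjamini-Hochberg adjustment over all probe sets. Single array values were compared by exact permutation over 924 splits (smallest p 0.00216). Lists used the brightest probe set of each gene. The rule for naming took the 12 genes of smallest p in each direction and genes called without the 4 arrays of low weight. It also took up to 4 members per list with unadjusted p under 0.05, and whole HSP70, dopamine and parkinsonism lists. The members it picked whose differences are not given above were Fosl2 (-0.64), F5 (-0.74), Col3a1 (0.55), Foxp2 (-0.36), Rprm (0.26), Pmvk (-0.25), Rplp2 (-0.16), Adcy5 (-0.14) and Uqcr11 (-0.14). Members, lists and the 4 arrays were chosen with earlier results of these data known. The script was tested on simulated data. Where each group had its own spread, which the fit does not model, that test also made calls among unchanged probe sets. Alternatives covered scaling, offset, filter, weights, sex, variance model, a replicate block and each array left out. The number of arrays limits the precision.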

Additional observations from a re-analysis of the deposited data

Results flagged for a closer look

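Levels of named genes were looked at in 218 groups of 6 arrays, and in 22 of them the highest or lowest array lay far from the other 5 by Dixon's criterion, which chance meets in about 1 of 20 groups. Of the 22, 15 were aSYN/Hsp70 replicate 4, 3 were Hsp70 replicate 3, and Hsp70 replicates 2 and 4 and aSYN/Hsp70 replicates 2 and 6 had 1 each. The cause was not tested.

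In aSYN/Hsp70 replicate 4 the low levels were Hspa1a at 7.86 (others 10.97 to 11.53), Sncg at 7.64 (others 9.99 to 10.72), Sncaip at 7.44 (others 9.27 to 9.79), Rpl14 at 8.35 (others 9.61 to 10.21), Bhlhe40 at 12.27, Ntng1 at 11.43, Foxp2 at 11.33, Gabrd at 11.89, Pink1 at 13.69, Hspa9 at 13.37 and St13 at 14.20. The high levels there were Rnf157 at 11.37 (others 9.64 to 10.08), Uchl1 at 16.38, Lrrk2 at 12.01 and Syn2 at 15.39.

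In Hsp70 replicate 3 Slc4a8 was low at 7.03, Adamts20 at 9.38 and Hspa8 at 16.61. Pink1 was low in Hsp70 replicate 2 at 13.57, Bhlhe40 in Hsp70 replicate 4 at 13.01, 1 probe set of Hspa1b in aSYN/Hsp70 replicate 2 at 11.19 and Trip4 in aSYN/Hsp70 replicate 6 at 10.42.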

How the results depend on the processing

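Over the alternatives, 0 of the 1607 values of genes named for a small p turned sign and 11 passed the threshold that the reported fit missed. These genes were chosen for a small p on the same arrays, so few turns were possible and the count is no further support. Among genes named for other reasons, Slc6a3 and Hspa1a were 2 whose signs turned. The count of calls, 0 as reported, was 2 with the larger offset, 5 with array weights, 4 without the 4 arrays of low weight, 5 with sex and weights, and 0 to 2 with 1 array left out: 2 without Hsp70 replicate 3, 1 without Hsp70 replicate 6, and 1, 1 and 2 without aSYN/Hsp70 replicates 1, 3 and 4. Interaction calls, 0 as reported, were 5 without quantile normalisation, 8 with the larger offset, 81 with array weights, 5 without the 4 arrays, 47 with sex and weights, 24 with trended and robust variance, and 0 to 30 with 1 array left out (14, 6 and 2 without Hsp70 replicates 1, 3 and 6, and 30 without aSYN/Hsp70 replicate 6). At an unadjusted p under 0.05, only the 12 arrays gave 1394, and 1 array left out 2158 to 3470. Probe sets without overlap were 50 under median centring, 1176 without the 4 arrays and 123 to 221 with 1 array left out, where fewer arrays overlap less often by construction. Otherwise the causes were not tested. Median centring put 25.4% of the probe sets at an unadjusted p under 0.05 on the higher side, against 42.1%, and the median of all at -0.10. Replicate numbers did not pair the samples: same-numbered arrays correlated at -0.15 to 0.19, and 2 of 6 matched best with their own number. The fit with the replicate block gave 0 calls, 2588 at an unadjusted p under 0.05 and 0 interaction calls.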
